A study of Capra hircus with 6 samples.

Results

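The genes described here are the semaphorins, plexins, neuropilins, ephrins and Eph receptors of the goat (Capra hircus), the ligand and receptor families best known from the guidance of growing axons. They were measured by RNA sequencing in the medio-basal hypothalamus, the block of tissue at the base of the brain from which releasing hormones reach the pituitary. The rule that picks the members uses gene symbols alone, but the set was proposed with earlier results of these data known. It takes in 52 of the 28907 rows of the deposited count table. They comprised 7 secreted class 3 semaphorins, 13 membrane semaphorins of classes 4 to 7, 10 neuropilins and plexins, 8 ephrins, 9 EphA receptors and 5 EphB receptors. All 52 had enough reads to be tested, with counts of 11 to 4915 per library. PLXNB2, the remaining class B plexin, was not analysed here.

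Follicular libraries came from 5 adult Alpine goats sampled in January, in the follicular phase when an ovulatory follicle grows. Anestrus libraries came from 8 adult Alpine goats sampled in mid-May, in anestrus, when ovarian cycles have stopped. Per the series' design text, RNA was extracted per goat and each condition was sequenced as 2 random equimolar mixes, so a library is a pool. The number of goats in each pool is not given in the sources used here. Nor is it stated whether the 2 pools of a condition share goats, so they may not be independent. Goats sampled in the luteal phase in January were not analysed here, and follicular phase and season differ together between the groups compared. The comparison bears on the seasonal part of the question in the study's title, the effect of season and progesterone on this region.

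Semaphorins are secreted or membrane-bound ligands that mostly repel, and sometimes attract, axons and migrating cells. They act through plexins, which as a rule need a neuropilin as co-receptor to bind class 3 semaphorins. Ephrins are ligands held in the membrane, by a lipid anchor in the A class and a transmembrane segment in the B class, and they bind Eph receptor tyrosine kinases on neighbouring cells, with signals in both directions. In the rodent hypothalamus, semaphorin signalling is known for steering the migration of GnRH neurons and for the remodelling of their terminals in the median eminence during the cycle. In adults both systems also act in synapses, blood vessels and oligodendrocytes.

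At an adjusted p under 0.05, edgeR's quasi-likelihood test called 0 of the 52 guidance genes, beside 0.203% of the 16756 genes tested. The DESeq2 Wald test and limma-voom also called 0 of the 52, beside 0.853% and 0.179% of all genes. At an unadjusted p under 0.05 there were 9, namely SEMA5A, PLXNB3, SEMA3E, EPHA5, PLXNA4, EPHB1, EPHA10, SEMA4A and PLXNB1. All 9 had the higher level in the follicular pools. These are 17.3% of the members, beside 8.55% of all genes tested in either direction and 4.26% with the higher level in the follicular pools. The smallest p among the members, that of SEMA5A, ranked 287 among all genes. Without follicular pool 1 the count was 2 (3.85% of members, beside 3.3% of all genes), a share near the background, and without anestrus pool 2 it was 15 (28.8%, beside 14.3% of all genes).

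The log2 fold change, follicular minus anestrus, had a median of 0.26 over the 52 genes, beside a median of 0.00 over all genes tested. It was positive for 35 and negative for 17, where 49.9% of all genes had a positive value, and the number of positive values ranged from 35 to 41 over the alternatives. The values ran from -0.74 to 0.96, with standard errors of 0.15 to 0.57. Leaving out 1 pool moved the log2 fold change by over 1.5 times for 40 of the 52 genes. The other 12 were EFNB3, EPHA5, EPHA10, EPHB1, PLXNA4, PLXNB3, SEMA3E, SEMA4D, SEMA4F, SEMA5A, SEMA5B and SEMA7A. This measure is a ratio, so values near 0 exceed it easily, and its share over all genes is not given here. Follicular pools lay above both anestrus pools for 23 members (44.2%, beside 17.6% of all genes) and below both for 4 (beside 20.7%). The plot of all 52 log2 fold changes shows both the tilt and the width of the errors.

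**Figure D1:**
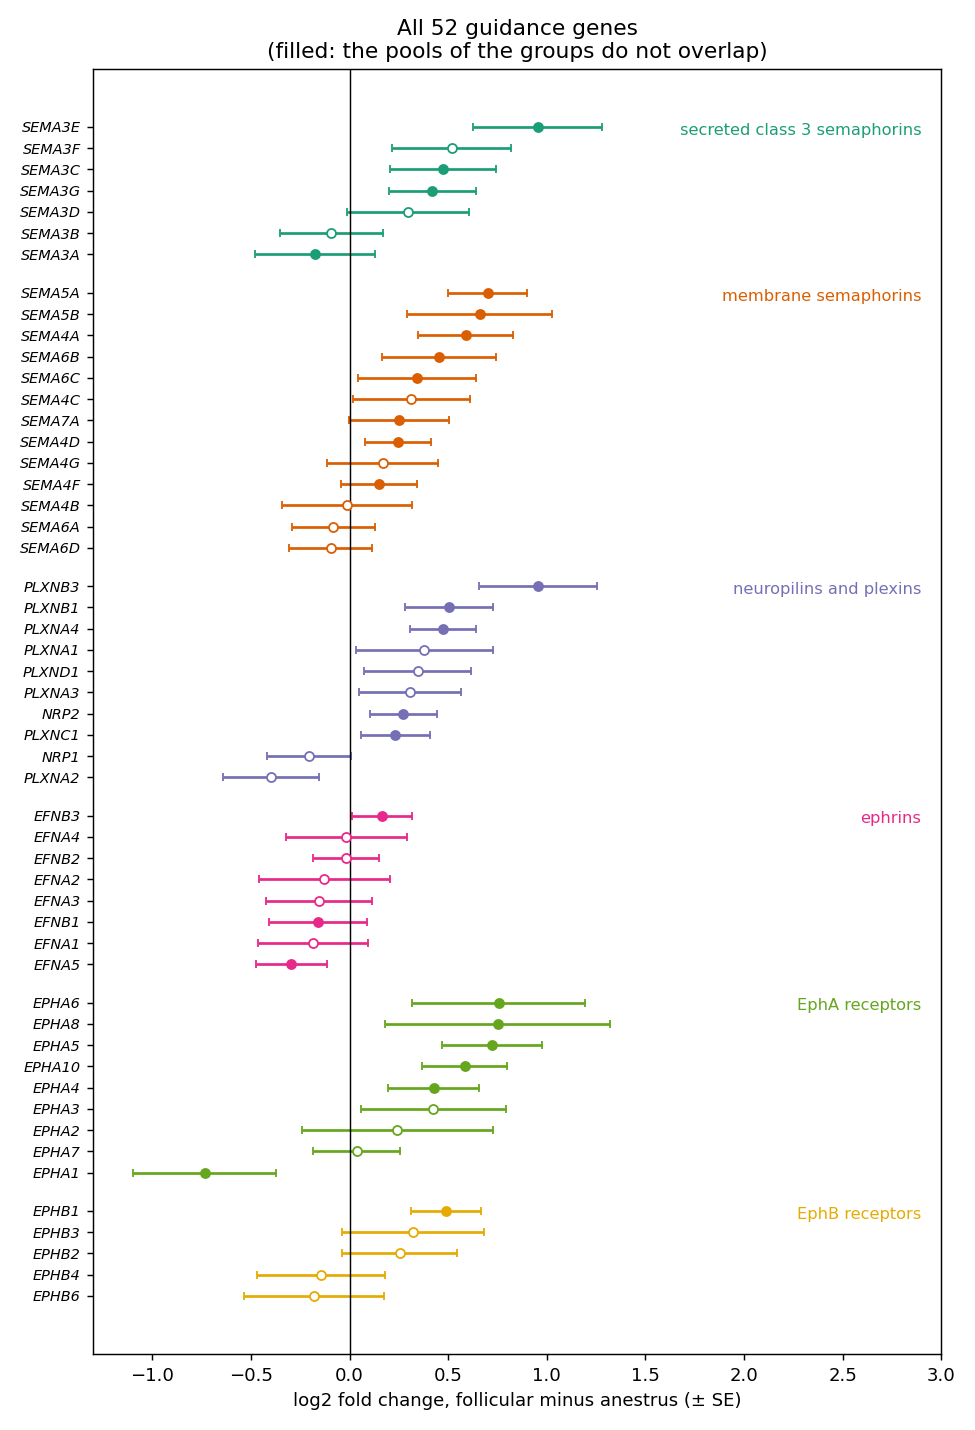
Log2 fold change, follicular minus anestrus, with its standard error (bars) for each of the 52 guidance genes, ordered within family; filled points mark genes whose follicular and anestrus pools do not overlap. Of the 52 points, 35 lie right of 0, and 7 of the 8 ephrins lie left of it (5 of 8 with scaling by library totals alone, 3 of 8 without anestrus pool 1).

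Library totals were 25292678 and 17090623 counts for the follicular libraries, against 14553821 and 17910056 for anestrus. Levels are given as CPM, counts per 1000000 counts of a library after TMM scaling. Lists of cell type markers differed between the same pools. Summed over 9 neuron markers, the level was 4793 to 5393 CPM in follicular pools and 4082 to 4377 CPM in anestrus pools. For 8 astrocyte markers it was 7867 to 8527 CPM in follicular pools and 4632 to 4767 CPM in anestrus pools. The sum of 10 oligodendrocyte markers was 3504 to 4726 CPM in follicular pools and 1901 to 2964 CPM in anestrus pools. Oligodendrocyte precursor markers (6 genes) summed to 316 to 354 CPM in follicular pools and 233 to 251 CPM in anestrus pools, and microglia markers (8 genes) to 409 to 433 CPM in follicular pools and 336 to 343 CPM in anestrus pools. In the opposite direction, 6 markers of fibroblasts and meninges summed to 838 to 968 CPM in follicular pools and 1268 to 1417 CPM in anestrus pools, and 11 of the anterior pituitary and pars tuberalis to 4715 to 5978 CPM in follicular pools and 13340 to 15619 CPM in anestrus pools. Tanycyte markers (8 genes) summed to 1032 to 1123 CPM in follicular pools and 1314 to 1428 CPM in anestrus pools. That list was mixed, with 6 negative and 2 positive log2 fold changes, and its highest mean level was 603 CPM. The sums overlapped or nearly touched for endothelial markers (8 genes, 272 to 276 CPM follicular and 243 to 272 CPM anestrus), mural cell markers (6 genes, 388 to 440 CPM follicular and 380 to 408 CPM anestrus) and markers of ependyma and choroid plexus (7 genes, 177 to 429.5 CPM follicular and 167 to 204 CPM anestrus). A sum can rest largely on 1 gene, as the highest mean level was 8244 CPM among pituitary markers and 3607 CPM among astrocyte markers. Of 10 pituitary markers tested, 9 had a negative and 1 a positive log2 fold change, and all 8 astrocyte markers had a positive one. None of the matched markers was at 0 in all libraries, so markers of neurons, glia and tanycytes were all present, together with those of pituitary tissue. In such bulk samples fewer cells of a type and less RNA per cell cannot be told apart, and the part of cell composition in the values of the guidance genes was not tested.

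**Figure D2:**
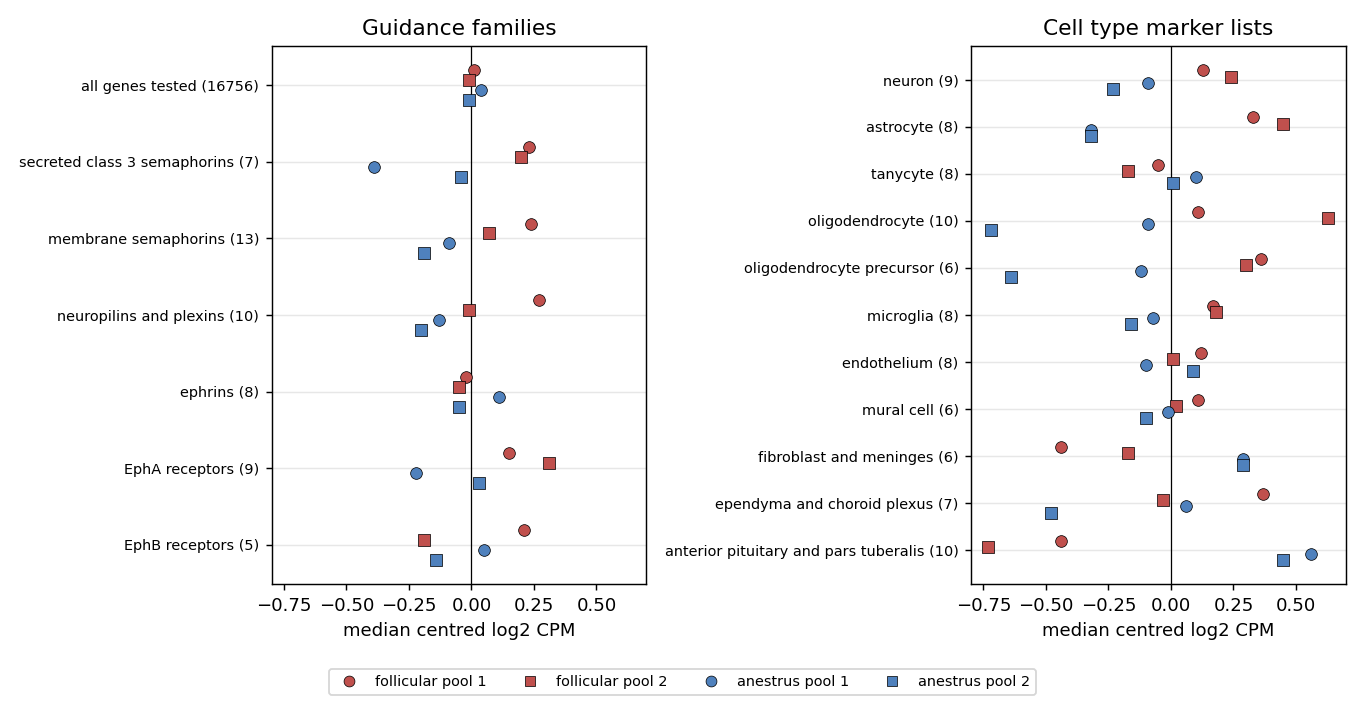
Median over the genes of a set of the log2 CPM after subtraction of each gene's mean over the 4 pools, for the guidance families (left) and the cell type marker lists (right), with the number of genes tested in parentheses; each point is 1 pool, red follicular and blue anestrus, circle pool 1 and square pool 2. The follicular pools lie right of the anestrus pools for both semaphorin families, for neuropilins and plexins and for EphA receptors, but not for ephrins or EphB receptors. Among the marker lists they lie to the right for neuron, astrocyte and oligodendrocyte markers, among others, and to the left for pituitary markers, among others. A link between families and markers was not tested.

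Among the secreted class 3 semaphorins, 0 of 7 passed, 5 had a positive and 2 a negative log2 fold change, and the family's median was 0.42. With anestrus pool 1 left out that median became 0.25, and with anestrus pool 2 left out 0.65. SEMA3E, known as a ligand that binds plexin D1 without a neuropilin and restrains vessel growth in the mouse, had 7.68 and 8.72 CPM in follicular pools 1 and 2, against 3.996 and 4.44 CPM in anestrus pools 1 and 2. Both follicular pools were well above both anestrus pools, which lay close together. The difference was 1.94-fold, with a log2 fold change of 0.95 ± 0.33 (± SE; adjusted p = 0.408, edgeR). It rested on 195 and 150 follicular counts, against 57 and 80 in anestrus, and its log2 fold change stayed between 0.86 and 1.08 over the 13 alternative settings.

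SEMA3C, which is known to attract some cortical axons in rodents, had 25.9 and 25.4 CPM in follicular pools 1 and 2, against 14.2 and 22.7 CPM in anestrus pools 1 and 2. The follicular pools were nearly equal, and anestrus pool 2 lay much nearer to them than anestrus pool 1. Its log2 fold change was 0.47 ± 0.27 with all pools, but 0.90 without anestrus pool 2 and 0.18 without anestrus pool 1. SEMA3G, known in mammals from blood vessels, had 33.96 and 33.24 CPM in follicular pools, against 22.0 and 28.2 CPM in anestrus pools, with a log2 fold change of 0.42 ± 0.22 (adjusted p = 0.667, edgeR). Again the groups did not overlap and anestrus pool 1 was the lower of its pair.

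SEMA3A, the repellent that in rodents guides GnRH axons and, secreted by vessels of the median eminence, promotes the outgrowth of their terminals, had 6.97 and 7.55 CPM in follicular pools 1 and 2, against 7.92 and 8.44 CPM in anestrus pools 1 and 2. Here the follicular pools were the lower ones, by a small margin, with a log2 fold change of -0.17 ± 0.30 (adjusted p = 0.934, edgeR). The members of this family not described singly, SEMA3B, SEMA3D and SEMA3F, overlapped between groups and had log2 fold changes of -0.09 to 0.52. In RefSeq's genes for the ARS1.2 assembly, SEMA3E, SEMA3A and SEMA3D follow each other with no protein-coding gene between them, and SEMA3C lies 3 protein-coding genes from SEMA3E. These neighbours had unlike values, from 0.95 for SEMA3E to -0.17 for SEMA3A.

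Membrane semaphorins were higher in the follicular pools for 10 of 13 members by log2 fold change, none of which passed, with a median of 0.25. In 8 of the 13 both follicular pools lay above both anestrus pools (61.5%, beside 17.6% of all genes), and in 0 below. SEMA5A, a class 5 semaphorin with thrombospondin repeats that acts on axons and synapses in the mouse, had 68.5 and 67.1 CPM in follicular pools 1 and 2, against 35.3 and 48.1 CPM in anestrus pools 1 and 2. The follicular pools were nearly equal, while the anestrus pools were both lower and spread apart. Its mean was 67.8 ± 1.01 CPM in follicular pools and 41.7 ± 9.06 CPM in anestrus pools (SD, n = 2 pools each), 1.62-fold higher in follicular pools, with a log2 fold change of 0.70 ± 0.20 (adjusted p = 0.301, edgeR). Without anestrus pool 2, SEMA5A reached an adjusted p of 0.00198 at a log2 fold change of 0.99, where adjusted p ran from 0.00198 to 1 over the alternatives. That fit has no spread within anestrus and cannot decide whether SEMA5A changed.

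SEMA5B, the paralogue of SEMA5A, had 4.76 and 5.06 CPM in follicular pools, against 2.804 and 3.387 CPM in anestrus pools, from 121 and 87 counts in follicular pools and 40 and 61 in anestrus pools. Both class 5 members thus had the same order of pools, follicular pools above anestrus pool 2 and anestrus pool 1 lowest. For SEMA5B the log2 fold change was 0.66 ± 0.37 and the adjusted p 0.697 (edgeR). SEMA4A, known from immune cells and the retina, had 32.5 and 24.4 CPM in follicular pools 1 and 2, against 17.9 and 19.9 CPM in anestrus pools 1 and 2. In this gene it was the follicular pools that lay apart, and the log2 fold change of 0.59 ± 0.24 (adjusted p = 0.52, edgeR) was 0.38 without follicular pool 1.

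SEMA4D, a ligand of plexin B1 that in the mouse is found on oligodendrocytes and guides GnRH neurons, had 81.7 and 75.9 CPM in follicular pools, against 67.9 and 65.0 CPM in anestrus pools. The pools of each group were close, the groups did not overlap, and the difference was small, 1.19-fold, with a log2 fold change of 0.25 ± 0.17 (adjusted p = 0.77, edgeR). SEMA7A, the lipid-anchored semaphorin that in rodents regulates contacts between tanycytes and GnRH terminals through plexin C1 and integrin beta 1, had 19.1 and 17.3 CPM in follicular pools 1 and 2, against 16.4 and 14.2 CPM in anestrus pools 1 and 2. That is 1.19-fold higher in follicular pools, with a log2 fold change of 0.25 ± 0.25 (adjusted p = 0.869, edgeR). SEMA6D, a ligand of class A plexins, overlapped between groups, with 72.3 and 89.8 CPM in follicular pools, against 70.5 and 102 CPM in anestrus pools.

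In SEMA6D the second pool was the higher one in each group, and its log2 fold change of -0.10 ± 0.21 turned positive without follicular pool 1 and without anestrus pool 2. The 7 other membrane semaphorins (SEMA4B, SEMA4C, SEMA4F, SEMA4G, SEMA6A, SEMA6B and SEMA6C) had log2 fold changes of -0.08 to 0.45, and SEMA4F, SEMA6B and SEMA6C did not overlap between groups. The plot of levels by pool shows these differences gene by gene.

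**Figure D3:**
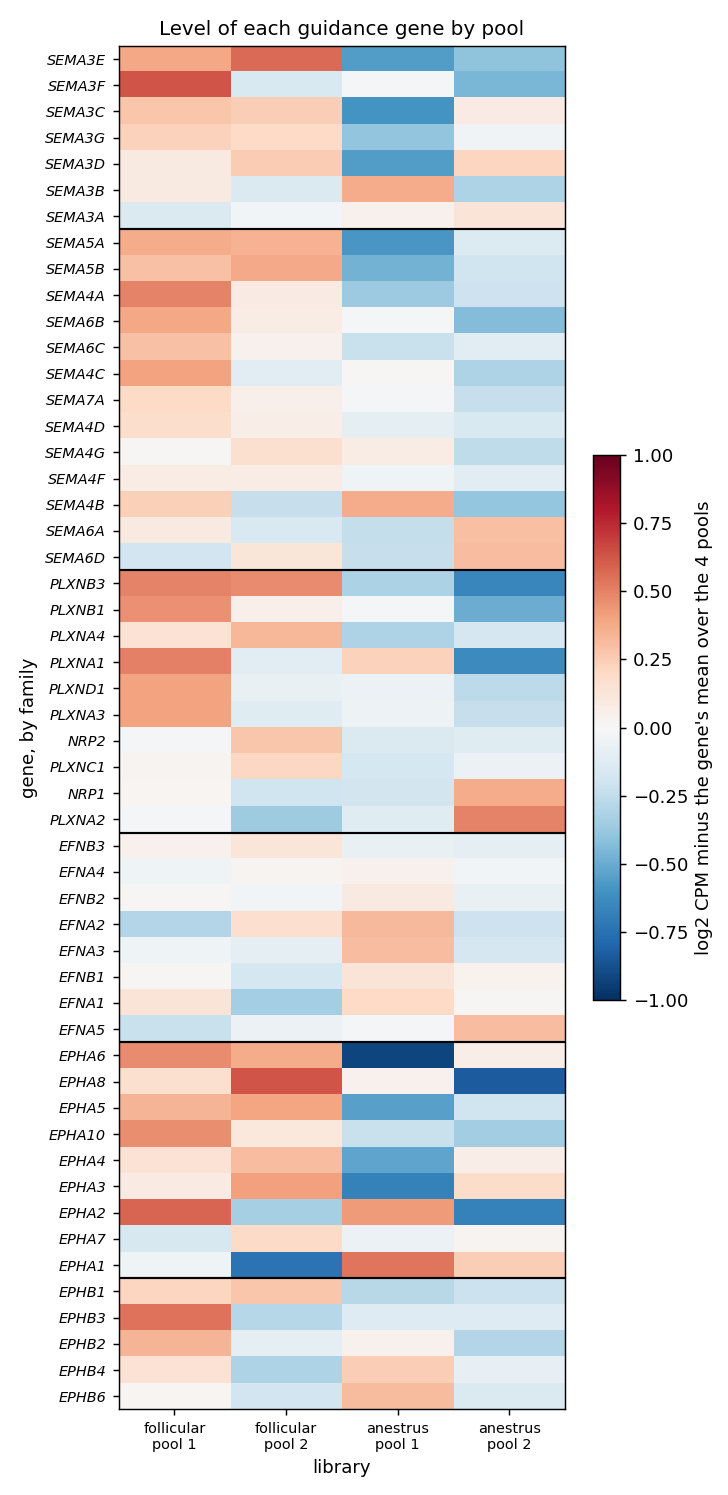
Level of each of the 52 guidance genes in the 4 pools, as log2 CPM minus the gene's mean over the pools (colour, red above and blue below the mean); lines separate the families, in the order class 3 semaphorins, membrane semaphorins, neuropilins and plexins, ephrins, EphA and EphB receptors. SEMA5A, PLXNB3 and SEMA3E are red in both follicular pools and blue in both anestrus pools, while PLXNA2 and NRP1 are reddest in anestrus pool 2.

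Of the semaphorin receptors, 8 of 10 had a positive log2 fold change, 0 passed, and the median was 0.33. PLXNB3, a plexin that binds SEMA5A and is known for its expression in oligodendrocytes of the mouse, had 12.8 and 12.6 CPM in follicular pools 1 and 2, against 7.29 and 5.77 CPM in anestrus pools 1 and 2. Its follicular pools were nearly equal and 1.94-fold above anestrus, with a log2 fold change of 0.96 ± 0.30 (adjusted p = 0.349, edgeR) from 324 and 216 counts in follicular pools, against 104 in each anestrus pool. Over the alternatives the log2 fold change ran from 0.84 to 1.13 and the adjusted p from 0.0513 to 1. Anestrus pool 2, lowest for PLXNB3, was also lowest for the oligodendrocyte markers. Those markers differed between follicular pools 1 and 2 (sums of 3504 and 4726 CPM), where PLXNB3 was nearly equal, and a link was not tested. The ligand SEMA5A and PLXNB3, a plexin that binds it, were both picked by their p, which favours separate groups. Both had higher levels in both follicular pools, but SEMA5A was lowest in anestrus pool 1 and PLXNB3 in anestrus pool 2.

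PLXNA4, a co-receptor for SEMA3A together with neuropilin 1, had 93.2 and 106 CPM in follicular pools 1 and 2, against 68.1 and 75.0 CPM in anestrus pools 1 and 2, with a log2 fold change of 0.47 ± 0.17 (adjusted p = 0.428, edgeR). The groups were clearly separate and the value stayed between 0.38 and 0.59 over the alternatives. PLXNB1, the receptor of SEMA4D, had 69.5 and 52.6 CPM in follicular pools, against 50.4 and 35.9 CPM in anestrus pools. Its pools lay apart within both groups, follicular pool 2 only just above anestrus pool 1. The log2 fold change was 0.50 ± 0.22 (adjusted p = 0.58, edgeR), and it was 0.31 without follicular pool 1 and 0.32 without anestrus pool 2. Without anestrus pool 1 it was 0.77 with an adjusted p of 0.0228, in a fit with no spread within anestrus, and over the alternatives adjusted p ran from 0.0228 to 1.

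NRP2, the neuropilin through which SEMA3F acts, had 114 and 140 CPM in follicular pools, against 104 and 106 CPM in anestrus pools, with a log2 fold change of 0.27 ± 0.17 (adjusted p = 0.741, edgeR). NRP1, the neuropilin of SEMA3A and also a co-receptor of VEGF, had 63.1 and 54.1 CPM in follicular pools 1 and 2, against 54.7 and 80.3 CPM in anestrus pools 1 and 2. The value of NRP1 in anestrus was set by pool 2, the highest of the 4, and the log2 fold change of -0.20 ± 0.21 was 0.15 without that pool. NRP1 and SEMA3A thus had negative values while PLXNA4 had a positive one, none past the threshold.

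PLXNC1, the receptor of SEMA7A, had 64.6 and 73.0 CPM in follicular pools, against 56.2 and 60.8 CPM in anestrus pools, a log2 fold change of 0.23 ± 0.17 (adjusted p = 0.795, edgeR). SEMA7A and PLXNC1 therefore both had slightly higher follicular levels with no overlap, and neither passed the threshold. PLXND1, the receptor of SEMA3E, overlapped between groups, with 22.0 and 15.8 CPM in follicular pools, against 16.0 and 13.9 CPM in anestrus pools. PLXNA1, a class A plexin used by several class 3 and class 6 semaphorins, had 19.3 and 12.6 CPM in follicular pools, against 15.9 and 8.72 CPM in anestrus pools, so the spread within each group was wider than the difference between them. PLXNA3 had a log2 fold change of 0.31 ± 0.26, which was 0.04 without follicular pool 1 and 0.54 without follicular pool 2. PLXNA2, the receptor with the lowest value at -0.40 ± 0.25 and described here after its values were seen, had 37.4 and 29.7 CPM in follicular pools, against 34.8 and 53.6 CPM in anestrus pools. As for NRP1, anestrus pool 2 alone was high, and without it the log2 fold change of PLXNA2 was -0.01.

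**Figure D4:**
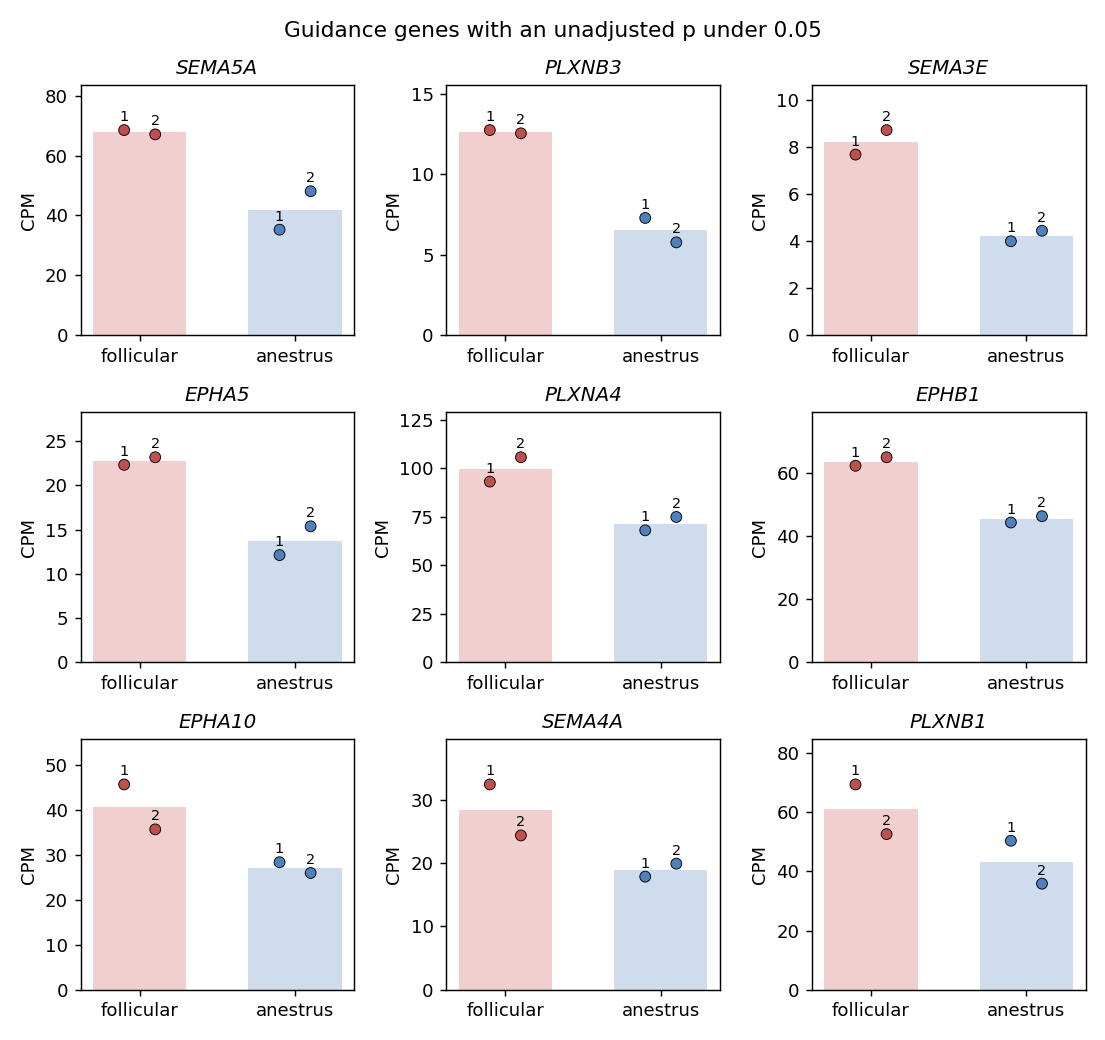
Level (CPM) in each pool for the 9 guidance genes with an unadjusted p under 0.05, in order of p; bars are the mean of 2 pools, points the pools with their number, follicular left and anestrus right. Both follicular pools lie above both anestrus pools in all 9 genes, an order that selection by p from these same pools favours. The margin is smallest for PLXNB1, at 52.6 CPM in follicular pool 2 and 50.4 CPM in anestrus pool 1.

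Ephrins as a family lay near or slightly below the median of all genes, with 7 of 8 log2 fold changes negative, a median of -0.14 and 0 called. The range was narrow, -0.30 to 0.17, and without anestrus pool 1 the direction was lost, with 5 positive values and a median of 0.04. Scaling by library totals alone, the filter on mean CPM and leaving out either follicular pool each gave 3 positive values of 8. EFNA5, the ephrin whose gradients map retinal axons in the mouse, had 65.0 and 72.8 CPM in follicular pools 1 and 2, against 74.9 and 94.1 CPM in anestrus pools 1 and 2. Follicular pool 2 and anestrus pool 1 were almost equal, and the log2 fold change was -0.30 ± 0.18 (adjusted p = 0.734, edgeR), which leaving out anestrus pool 2 brought to -0.08 and leaving out anestrus pool 1 to -0.45. EFNB3, a midline repellent for motor axons in the mouse, had 193 and 205 CPM in follicular pools, against 179 and 176 CPM in anestrus pools. It was the exception among the ephrins, 1.12-fold higher in follicular pools, with a log2 fold change of 0.17 ± 0.15 (adjusted p = 0.853, edgeR).

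EFNB2, the ligand that marks arteries, was nearly level, with 75.7 and 73.6 CPM in follicular pools, against 79.9 and 71.4 CPM in anestrus pools. Its log2 fold change was -0.02 ± 0.17, which took the opposite sign with scaling by library totals alone. EFNA1, known from vessels and epithelia, had 15.7 and 11.3 CPM in follicular pools, against 16.4 and 14.4 CPM in anestrus pools, with overlap. The other 4, EFNA2, EFNA3, EFNA4 and EFNB1, had log2 fold changes of -0.16 to -0.02. EFNA4, EFNA3 and EFNA1 are consecutive protein-coding genes in the ARS1.2 table, and all 3 had small negative values, of -0.02, -0.16 and -0.19.

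The EphA receptors, which bind mainly the A ephrins, had a positive log2 fold change in 8 of 9 members, a median of 0.43 and 0 called. EPHA5, a neuronal receptor of axon mapping and synapse formation in the mouse, had 22.3 and 23.2 CPM in follicular pools 1 and 2, against 12.1 and 15.4 CPM in anestrus pools 1 and 2. Both follicular pools were clearly above both anestrus pools, 1.65-fold on the fitted scale, with a log2 fold change of 0.72 ± 0.25 (adjusted p = 0.417, edgeR). EPHA10, a member whose kinase domain is considered inactive, had 45.6 and 35.6 CPM in follicular pools, against 28.3 and 25.9 CPM in anestrus pools. The log2 fold change of EPHA10 was 0.58 ± 0.22 (adjusted p = 0.455, edgeR), and 0.41 without follicular pool 1, the highest of the 4.

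EPHA4, the receptor that binds both ephrin classes and limits axon growth and excitatory synapses in the mouse, had 45.6 and 51.0 CPM in follicular pools 1 and 2, against 28.6 and 43.1 CPM in anestrus pools 1 and 2. Anestrus pool 2 was close to the follicular pools and anestrus pool 1 far below. The log2 fold change was 0.43 ± 0.23 with all pools (adjusted p = 0.681, edgeR). It was 0.80 without anestrus pool 2, with an adjusted p of 0.0431, and 0.16 without anestrus pool 1, and adjusted p ran from 0.0431 to 1 over the alternatives. EPHA1, an epithelial receptor also known from genetic studies of Alzheimer's disease, went the other way, at 5.35 and 3.31 CPM in follicular pools, against 7.99 and 6.55 CPM in anestrus pools. Its log2 fold change of -0.74 ± 0.36 (adjusted p = 0.63, edgeR) was the lowest of the 52 genes and rested on 136 and 57 counts in follicular pools, against 114 and 118 in anestrus pools.

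The 5 other EphA receptors, EPHA2, EPHA3, EPHA6, EPHA7 and EPHA8, ran from 0.04 to 0.76 on the log2 scale and had few reads except EPHA7. EPHA8 had 31 and 29 counts in follicular pools, against 16 and 11 in anestrus pools, with a standard error of 0.57. EPHA6 had 103 and 65 counts in follicular pools, against 22 and 55 in anestrus pools, and overlaps 2 pseudogenes in the ARS1.2 table, one of these with 42 and 85 counts in follicular pools and 80 and 44 in anestrus pools. Whether counting used strand is not given in the sources used here, so reads of EPHA6 and of these pseudogenes may not be fully separated. Overlapping genes were also annotated for EPHA7, EPHB4, NRP2, PLXNB1 and PLXNC1, with 0 to 50 counts per library.

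Of the EphB receptors, which bind mainly the B ephrins, 3 of 5 had a positive log2 fold change and 0 passed. The median of 0.25 was -0.14 without follicular pool 1. EPHB1, a receptor that turns retinal axons at the optic chiasm in the mouse, had 62.3 and 65.0 CPM in follicular pools 1 and 2, against 44.3 and 46.3 CPM in anestrus pools 1 and 2. The pools of each group were nearly equal, and the groups were separate. The mean was 63.6 ± 1.91 CPM in follicular pools and 45.3 ± 1.41 CPM in anestrus pools (SD, n = 2 pools each), 1.40-fold higher in follicular pools, with a log2 fold change of 0.49 ± 0.18 (adjusted p = 0.437, edgeR). No alternative took it outside 0.46 to 0.57. EPHB3 had 9.25 and 5.23 CPM in follicular pools, against 5.82 and 5.83 CPM in anestrus pools. Only follicular pool 1 of EPHB3 was high, and the log2 fold change of 0.32 ± 0.36 was -0.14 without it. EPHB2, a receptor of excitatory synapses, overlapped, with 16.0 and 11.8 CPM in follicular pools, against 13.04 and 10.33 CPM in anestrus pools. EPHB4, the receptor that marks veins, and EPHB6, which lacks kinase activity, overlapped too, with log2 fold changes of -0.14 and -0.18.

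Set side by side, 11 of 14 Eph receptors and 1 of 8 ephrins (3 of 8 with scaling by library totals alone) had a positive log2 fold change, and the medians were 0.37 for the receptors and -0.14 for the ligands. For semaphorins the count was 15 of 20, and for their receptors 8 of 10, with medians of 0.30 and 0.33. The difference between ligands and receptors was not tested, and the direction of the ephrins depended on anestrus pool 1 as given above.

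The pools of a group often differed as much as the groups did. The ratio of the higher to the lower pool had a median over the 52 genes of 1.17 in follicular pools and 1.26 in anestrus pools. It reached 1.88 in follicular pools and 2.15 in anestrus pools, both for EPHA2, with 4.92 and 2.62 CPM in follicular pools, against 4.42 and 2.05 CPM in anestrus pools. Follicular pool 1 was the higher of its pair for 32 genes. In anestrus, pool 1 was higher for 28 genes, among them 7 of the 8 ephrins, and pool 2 for 24.

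Of other genes of axon guidance and of semaphorin and Eph signalling, 94 were listed and 85 could be tested, with 0 called by edgeR, 3 by the DESeq2 Wald test (3.53%, beside 0.853% of all genes) and 0 by limma-voom. At an unadjusted p under 0.05 there were 9 with higher and 1 with lower follicular levels, 11.8% in all beside 8.55% of all genes. The median log2 fold change was 0.10, with 52 positive and 33 negative values. SLIT1, a secreted repellent that acts through ROBO receptors, had 155 and 125 CPM in follicular pools, against 77.0 and 75.0 CPM in anestrus pools, 1.84-fold higher in follicular pools. Its log2 fold change was 0.88 ± 0.17 with an adjusted p of 0.104 (edgeR), and ranged from 0.73 to 1.03 over the alternatives. With all pools kept, SLIT1 passed only with no count filter, in the DESeq2 Wald test and with a replicate block (library or title numbers). Those settings called 300, 143, 90 and 130 genes in all, against 34 with the main settings. VAV3, a signalling protein that Eph receptors activate, was the lower one, at 53.2 CPM in both follicular pools, against 96.7 and 94.3 CPM in anestrus pools. The log2 fold change of VAV3 was -0.84 ± 0.17 (adjusted p = 0.104, edgeR). With all pools kept, VAV3 passed only in the same settings as SLIT1.

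DPYSL2, also called CRMP2, which carries the semaphorin 3A signal to microtubules, had 233 and 220 CPM in follicular pools 1 and 2, against 90.4 and 151 CPM in anestrus pools 1 and 2. Its anestrus pools were far apart and both below the follicular ones, with a log2 fold change of 0.91 ± 0.23 (adjusted p = 0.266, edgeR). With all pools kept, DPYSL2 passed only with no count filter, in the DESeq2 Wald test and with the replicate block by title numbers. The related DPYSL5 had a log2 fold change of 0.59 ± 0.18 (adjusted p = 0.342, edgeR). Of netrin genes, UNC5B, a netrin receptor of axons and vessels, had 8.07 and 9.06 CPM in follicular pools, against 4.63 and 4.39 CPM in anestrus pools (log2 fold change 0.93 ± 0.32), and NTN4, a netrin of basement membranes, had a value of -0.39 ± 0.21. SRGAP3, a GTPase-activating protein of the slit pathway, had a log2 fold change of 0.22 ± 0.16, BMPR1B, a BMP receptor, of 0.37 ± 0.20, RGMA, a repulsive guidance molecule, of 0.40 ± 0.39, and ANKS1B, a scaffold of the postsynaptic density, of 0.49 ± 0.18. None of these passed. For RGMA the value was 1.12 with anestrus pool 1 left out and -0.05 with anestrus pool 2 left out, and for BMPR1B it was 0.12 with follicular pool 2 left out. The value of DPYSL2 lay between 0.58 and 1.37, the extremes coming from the fits that drop anestrus pool 1 or 2.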

How the data were processed

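Raw read counts per gene, whole numbers without normalization, were deposited by the authors for 2 follicular and 2 anestrus pools. Per the labels' protocols, libraries were made from TriReagent RNA with the Truseq stranded mRNA kit. Per the submitters' processing notes, reads were handled with TopHat2 2.1.1 and Bowtie2 2.3.5.1, among other tools, and featureCounts 2.0.0 is named as the counter. No genome build, annotation or strand setting is given in the sources used here, so no coordinates are printed.

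From these counts, edgeR 4.0.16 in R 4.3.3 was run on all genes (filterByExpr at its defaults, count 10 and total 15, TMM scaling, robust glmQLFit, glmQLFTest, 2 residual degrees of freedom). Tests were 2-sided, with Benjamini-Hochberg adjustment across 16756 genes, and genes under 0.05 are called. CPM were scaled with the TMM factors. The standard errors given with edgeR values were derived from its test, as the absolute log2 fold change over the square root of the F statistic. No transcript lengths were used, so levels are not compared between genes. P-values measure the spread between pools, not between goats, and edgeR moderates each gene's spread with that of all genes tested. They thus do not rest on the 2 residual degrees of freedom of a gene alone. The steps were tested on simulated counts. The differences planted there were larger than that of any member, so that test cannot show how well smaller ones are found. Alternatives used limma 3.58.1, DESeq2 1.42.0, other scalings and filters, a replicate block and each pool left out in turn.

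The members and lists were chosen with earlier results of these data known. Genes described singly by rule were, per family, the 3 with the smallest p and the one with the highest mean CPM, together with SEMA3A, SEMA4D, SEMA7A, NRP1, NRP2, PLXNA1, PLXNB1, PLXNC1, PLXND1, EFNB2, EPHA5 and EPHB1, and, per pathway list, the 2 with the smallest p. Single values of some other members, among them PLXNA2, PLXNA3, EPHA2, EPHA6, EPHA8, EPHB4 and EPHB6, are given outside that rule. Gene names came from the table, all 52 members had an entry among RefSeq's ARS1.2 genes, and these gave neighbouring and overlapping genes. Pool numbers are those of the library names, since the titles give the anestrus pools the opposite numbers.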

Additional observations from a re-analysis of the deposited data

How the results depend on the processing

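The count of guidance genes called stayed at 0 in the alternatives with all pools and ranged from 0 to 2 when 1 pool was left out. It was 1 without anestrus pool 1 (PLXNB1, 1.92% of members, beside 4.72% of all genes in that fit) and 2 without anestrus pool 2 (EPHA4 and SEMA5A, 3.85%, beside 3.39%), shares below or near the background. Their median log2 fold change ranged from 0.180 without follicular pool 1 to 0.311 without follicular pool 2, beside 0.263 with all pools. Over all genes the calls numbered 34, but 300 with no count filter, 143 in the DESeq2 Wald test and 4 to 810 with 1 pool left out. The other guidance genes called numbered 0, but 3 with no count filter (3.53%, beside 1.38% of all genes), 3 in the DESeq2 Wald test (3.53%, beside 0.853%) and 0 to 6 with 1 pool left out, at most 7.06%, in the fits without anestrus pool 1 or 2 (beside 4.72% and 3.39%). With the library number as a replicate block, 90 genes, 0 guidance genes and 2 of the other guidance genes were called. With the title numbers as a block these were 130, 0 and 3. Nothing in the labels ties pools of the same number together, and the deviations of same-numbered pools from their group means correlated at r = 0.26 across genes. At an unadjusted p under 0.05 there were 14 guidance genes with the library number as a block (26.9%, beside 13.9% of all genes) and 7 with the title numbers (13.5%, beside 6.67%).

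Over all 52 guidance genes, 36 kept the sign of their log2 fold change in the 13 alternatives and 16 changed it in at least 1. Of the 29 described by rule, 24 kept it. With 1 pool left out, EPHB3 ran from -0.139 (without follicular pool 1) to 0.667, EFNA1 from -0.423 to 0.0265 (without follicular pool 2), SEMA6D from -0.341 to 0.245 (without anestrus pool 2, and 0.0659 without follicular pool 1) and NRP1 from -0.455 to 0.145 (without anestrus pool 2). EFNB2 ran from -0.0542 to 0.0630 (without anestrus pool 1, and 0.00133 without follicular pool 2), and was 0.000635 with library totals only and 7.11e-05 with the filter on mean CPM. The cause was not tested. Fits without a pool have 1 residual degree of freedom and take the lone pool to vary like the other group. EPHA8 had the fewest reads, 11 to 31 counts per library, and the largest standard error, 0.57.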
